A study of Macaca mulatta with 4 samples.

Results

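The blood of a rhesus macaque 8 weeks after transplantation of human stem cell-derived islets was set against blood taken before any immunosuppression. The 8 wpt library (8 weeks post-transplantation) and the Pre-IS library (before immunosuppression) together held 4508 of the 6993 cells of the series, 2580 and 1928 respectively. Gene levels were compared in every cell type label of the authors with at least 50 cells in both libraries, which gave 6 classes and 4411 cells. These were T cells (2015 cells), NK cells (916), B cells (529), naive B cells (209), CD14+ monocytes (602) and MS4A7+ monocytes (140). Cell shares were compared for all 9 labels.

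All libraries were 10x Genomics 5' single-cell RNA sequencing of peripheral blood mononuclear cells (PBMCs) of Macaca mulatta. The other libraries were taken after immunosuppression and ahead of the transplant (Post-IS) and at 4 weeks after it (4 wpt). Each group was 1 library. The animals' age, sex and strain, the drugs, whether they were still given at 8 weeks, and whether the libraries came from the same animal are not given in the sources used here. With 1 library per group there is no test between groups and no replicate check, and every interval below covers counting error only. The Post-IS and 4 wpt values printed beside the comparison are levels, or ratios that share the Pre-IS library with it.

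PBMCs are the white cells of blood with a single round nucleus. T cells recognise peptides through rearranged receptors, B cells carry rearranged antibodies, and NK cells kill without such a receptor. Monocytes are blood phagocytes, of a classical kind rich in CD14 and a nonclassical kind that patrols the vessel wall and expresses MS4A7 and the Fc receptor FCGR3. Drugs that prevent rejection act mainly on lymphocytes, and after depletion the lymphocyte classes refill at different speeds. A comparison with the untreated baseline therefore asks, class by class, which shares and which transcripts stood where they had been.

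The label markers followed the labels in both libraries. CD3D stood at 1136 and 1120 CPM in T cells for Pre-IS and 8 wpt (CPM being UMIs, unique molecular identifiers that each stand for 1 captured transcript, per 1000000 UMIs of the class), against 142 and 135 CPM in NK cells. The libraries held 3356133 (Pre-IS) and 5482144 UMIs (8 wpt), with medians of 1563 and 1877 UMIs per cell. Depth per cell was higher at 8 wpt in all 6 classes, least in NK cells (1614 against 1758) and most in MS4A7+ monocytes (1111 against 2023). Mitochondrial transcripts took 0.653% and 0.741% of UMIs. The libraries shared 12 cell barcodes. Cells with transcripts of another lineage made up 1.07% (Pre-IS) and 2.73% (8 wpt) of T cells, 3.11% and 3.19% of NK cells, 14.2% and 23.0% of B cells, and 9.09% and 10.1% of naive B cells. In CD14+ monocytes they made up 3.13% and 4.05%, and in MS4A7+ monocytes 1.33% and 4.62%.

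The T cell and CD14+ monocyte shares at 8 wpt lay within counting error of baseline, whereas NK cells were higher and B cells lower. T cells made up 43.6% of Pre-IS cells (exact 95% interval 41.4 to 45.9) and 45.5% at 8 wpt (43.6 to 47.4). CD14+ monocytes made up 13.3% (11.8 to 14.9) and 13.4% (12.1 to 14.8). NK cells made up 13.3% (11.8 to 14.9) and 25.5% (23.9 to 27.3), a share 1.92-fold higher (1.66 to 2.22). B cells made up 18.2% (16.5 to 20) and 6.90% (5.95 to 7.95), a share 2.64-fold lower (2.20 to 3.18).

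The remaining labels were smaller. Naive B cells, which have not met antigen, made up 5.71% for Pre-IS (4.71 to 6.84) and 3.84% at 8 wpt (3.13 to 4.65), 1.49-fold lower (1.12 to 1.97). The fold for naive B cells was thus smaller than that for B cells, with intervals that did not overlap. MS4A7+ monocytes made up 3.89% (3.07 to 4.85) and 2.52% (1.95 to 3.2), 1.54-fold lower (1.09 to 2.19). Among cells of at least 1000 UMIs the same class made up 2.50% and 2.19%, 1.14-fold lower with an interval that crossed 1 (0.744 to 1.74). Cells labelled as proliferating NK/T cells were 8 for Pre-IS and 30 at 8 wpt, 0.415% and 1.16%, 2.80-fold higher (1.26 to 7.07). Dendritic cells made up 1.56% (1.05 to 2.21) and 1.12% (0.754 to 1.61). Platelets were 0 of 1928 and 0 of 2580 cells, which allows shares of up to 0.156% and 0.116% at 3 counts.

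**Figure D1:**
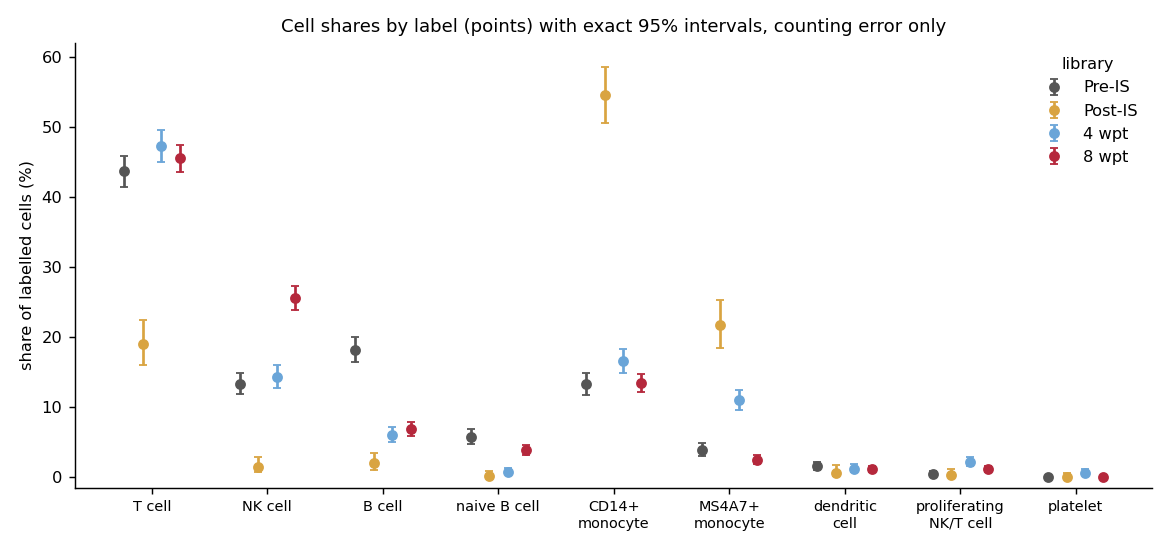
Share of labelled cells (%, vertical axis) for each of the 9 labels in the 4 libraries; points are shares and bars exact 95% binomial intervals, counting error only. The 8 wpt points of T cells (45.5%) and CD14+ monocytes (13.4%) sit beside the Pre-IS points, that of NK cells (25.5%) lies above all other libraries, and that of B cells (6.90%) stays near 4 wpt.

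Set beside the Post-IS and 4 wpt libraries, the NK share at 8 wpt was above all others. It stood at 13.3%, 1.49%, 14.3% and 25.5% in the order Pre-IS, Post-IS, 4 wpt and 8 wpt. The proliferating NK/T label, also above baseline, stood at 0.415%, 0.332%, 2.18% and 1.16%, highest at 4 wpt. The B cell share stood at 18.2%, 1.99%, 6.06% and 6.90%, so the 4 wpt and 8 wpt values lay within each other's counting error and both below baseline. Naive B cells stood at 5.71%, 0.166%, 0.744% and 3.84%. Of the B lineage, naive cells were 110 of 461 in the Pre-IS, 14 of 128 in the 4 wpt and 99 of 277 in the 8 wpt library. MS4A7+ monocytes stood at 3.89%, 21.7%, 11% and 2.52%, and CD14+ monocytes at 13.3%, 54.6%, 16.6% and 13.4%.

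The directions of the B cell and NK cell shares appeared in most of their markers summed over whole libraries without any label. MS4A1, which encodes CD20, was 2.38-fold lower at 8 wpt (2.20 to 2.57), and CD79A, a signalling chain of the B cell receptor, 2.37-fold (2.19 to 2.56). The NK receptors KLRF1 and KLRD1 were 1.5-fold (1.32 to 1.71) and 1.59-fold higher (1.5 to 1.68). NCR1, the NK receptor NKp46, was 1.06-fold higher with an interval from 0.834 to 1.36, so this marker did not follow the NK share. CD3D was at 1.02-fold (0.956 to 1.08), CD3E at 0.944-fold (0.892 to 0.999) and MS4A7 1.70-fold lower (1.35 to 2.15). MS4A7 was also lower within MS4A7+ monocytes, at 840 and 570 CPM, so its sum does not measure the share of that class alone. Markers of CD14+ monocytes went both ways. CD14 was 1.22-fold lower (1.08 to 1.37), whereas S100A8 was 1.22-fold (1.17 to 1.27) and LYZ 1.15-fold higher (1.12 to 1.19). Shares say nothing of cells per volume of blood.

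Within the classes, a gene was counted as higher or lower where its CPM differed at least 1.5-fold, among genes with at least 20 UMIs over both libraries. Ratios carry exact conditional binomial 95% intervals. They treat UMIs as independent, so they are too narrow where a gene's UMIs sit in few cells. List medians are medians of log2 ratios of 8 wpt over Pre-IS. Over all measured genes that median was 0.04 in T cells, 0.06 in NK cells, 0.01 in B cells, -0.00 in naive B cells, 0.01 in CD14+ monocytes and -0.05 in MS4A7+ monocytes.

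**Figure D2:**
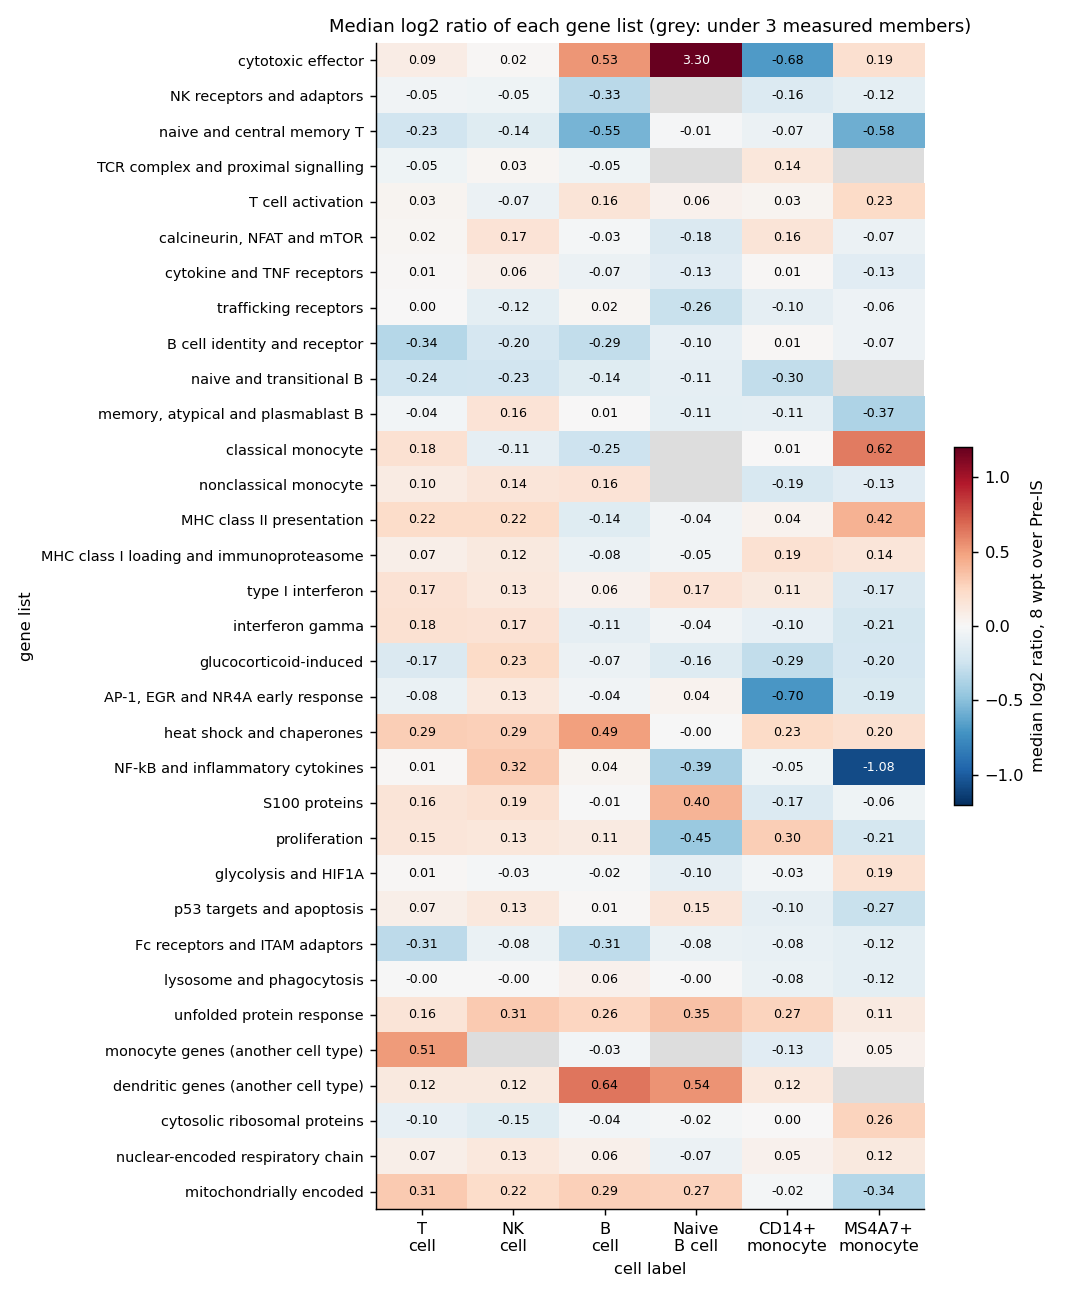
Median log2 ratio of CPM, 8 wpt over Pre-IS, for 33 gene lists (rows) in the 6 classes (columns); red is higher and blue lower at 8 wpt, grey marks lists with fewer than 3 measured members. The low values stand in monocytes: -0.70 for early response genes in CD14+ and -1.08 for 5 NF-kB genes in MS4A7+ monocytes, the latter -0.16 in cells thinned to 1000 UMIs; the 3.30 for naive B cells rests on 3 genes.

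T cells at 8 wpt were close to baseline in receptor signalling and cytotoxic genes, higher in several interferon and MHC class II genes, and lower in some steroid-responsive and naive cell genes. Of 8495 measured genes, 9.08% passed 1.5-fold upward and 5.52% downward. Of 20 genes of the receptor complex and its proximal signalling, 0 were higher and 0 lower (median -0.05). CD3D stood at 1136 CPM for Pre-IS and 1120 CPM at 8 wpt. The coreceptors CD8A (191 and 192 CPM) and CD8B (94.1 and 94.4 CPM) had nearly equal levels, and CD4 stood at 119 and 88.2 CPM, 1.35-fold lower (1.09 to 1.67).

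Cytotoxic effector genes, whose products make killing granules and chemokines, had 2 of 25 higher and 1 lower in T cells, with a median of 0.09. The same median was -1.28 for Post-IS and -0.30 for 4 wpt, both over Pre-IS. Granzyme B (GZMB), the granule protease, stood at 1864.5, 369, 1265 and 2044 CPM in Pre-IS, Post-IS, 4 wpt and 8 wpt. NKG7, a granule membrane protein, stood at 1024, 397, 670 and 1146 CPM. For both genes the 8 wpt level was the highest of the 4 libraries, 1.10-fold and 1.12-fold that of baseline. The chemokine CCL4L1 was 1.74-fold lower at 8 wpt (1.52 to 2.0), but 145 of its 429 Pre-IS UMIs lay in 1 cell, and without the cell the ratio was 0.848. IFNG, the interferon gamma gene, was 1.60-fold higher on 17 and 45 UMIs (0.898 to 2.98).

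Type I interferon response genes had 9 of 36 at least 1.5-fold higher in T cells and 0 lower, beside the 9.08% of all genes, and their median was 0.17. IFI27, an interferon-induced mitochondrial protein, stood at 24.4, 34.8, 117 and 57.7 CPM in the 4 libraries in order of time and was 2.36-fold higher at 8 wpt than at baseline (1.60 to 3.58). It was thus above baseline at 8 wpt and below its 4 wpt level, and in cells thinned to 1000 UMIs its log2 ratio was 1.96 in place of 1.22. PARP9 was 2.0-fold (1.13 to 3.75), SAMD9 1.63-fold (1.12 to 2.41) and OAS2, an RNA sensor, 1.54-fold higher (1.06 to 2.28). The most abundant members IFITM2 (660 and 686 CPM), ISG20 (351 and 317 CPM) and BST2 (264 and 311 CPM) differed by less than 1.5-fold.

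MHC class II presentation genes, which activated T cells of primates can express, had 5 of 12 higher and 0 lower in T cells (median 0.22). MAMU-DRA, a class II alpha chain, was 2.40-fold higher (1.72 to 3.41), at 33.3 and 80.1 CPM. CD74, the invariant chain, was 1.65-fold higher (1.47 to 1.86), at 291 and 482 CPM, and MAMU-DRB1 1.89-fold (1.47 to 2.44). The log2 ratio of CD74 was 0.72, and 0.54, which is under 1.5-fold, once cells with transcripts of another lineage were left out. Monocyte genes were also higher in T cells for 2 of 5 measured, S100A8 at 4.44 and 25.5 CPM and S100A9 at 2.22 and 11.2 CPM. The summed level of the 9 monocyte genes in the tables was 144 and 178 CPM, with a median log2 ratio of 0.51, or 0.12 without cells carrying transcripts of another lineage. The median of the B cell identity genes in T cells was -0.34. The part of other cells' RNA in the class II values was not tested beyond this.

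Glucocorticoid-induced genes had 1 of 19 higher and 5 lower in T cells (median -0.17), whereas the Post-IS median over Pre-IS was 0.65. TSC22D3, which encodes the steroid-induced protein GILZ, stood at 521, 571, 584 and 412 CPM, and DUSP1, a MAP kinase phosphatase, at 58.5, 104, 63.4 and 35.4 CPM. Both were at their lowest at 8 wpt. PIK3IP1, an inhibitor of PI3 kinase, was 1.61-fold lower (1.26 to 2.05) and KLF9 2.03-fold lower (1.11 to 3.74). CEBPB was the higher member, 1.81-fold (1.09 to 3.13).

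Naive and central memory genes had 0 of 13 higher and 2 lower in T cells, with a median of -0.23. IL7R, the interleukin 7 receptor, stood at 1117, 1510, 1102 and 874 CPM and was 1.28-fold lower than baseline (1.19 to 1.37). CCR7, the lymph node homing receptor, stood at 364, 452, 387 and 306 CPM. BACH2 (2.69-fold lower, 1.03 to 7.49, on 13 and 8 UMIs) and CCR9, a gut homing receptor (1.86-fold lower, 1.13 to 3.06), passed 1.5-fold. KLF2, a quiescence and trafficking factor on the list, went the other way at 465 and 686 CPM, 1.47-fold higher (1.34 to 1.62).

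Few T cell genes had a whole interval beyond 1.5-fold: 4 higher (0.0947% of 4223 genes eligible) and 3 lower (0.071%). Those higher were IFI27 and 3 others. CPT1A, which brings fatty acids into mitochondria, stood at 14.1, 34.8, 22.7 and 46.1 CPM and was 3.28-fold higher (1.99 to 5.66). SAMD3 stood at 17.8, 20.9, 20.5 and 46.1 CPM, 2.59-fold higher (1.65 to 4.23). HSPH1, a chaperone of the HSP110 kind, stood at 26.7, 41.7, 51.4 and 64.9 CPM, 2.43-fold higher (1.68 to 3.61). Lower beside CCL4L1 were TACO1, a translation factor for a mitochondrial subunit, 2.76-fold (1.72 to 4.49), and MRTFA, a coactivator of serum response factor, 2.45-fold (1.64 to 3.67). Of 22 heat shock and chaperone genes HSPH1 alone was higher by 1.5-fold, and their median was 0.29. Calcineurin, NFAT and mTOR genes, which hold the targets of several immunosuppressive drugs, had 2 of 21 higher and 2 lower (median 0.02). IMPDH2, an enzyme of purine synthesis, was 1.51-fold lower (1.2 to 1.89).

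T cell receptor V genes were read as a label of receptor usage, a step chosen after their values were seen. Each T cell joins 1 V gene to make its beta chain (TRBV) and 1 or more for its alpha chain (TRAV), and cells of a clone share both. Of 20 TRBV genes with a symbol, 10 had 20 or more T cells over both libraries. Among these 10 the share of T cells with a UMI was higher at 8 wpt with an interval above 1 for 3 and lower for 1.

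TRBV9 was seen in 46 of 841 Pre-IS T cells, 5.47% (4.03 to 7.23), and in 141 of 1174 T cells at 8 wpt, 12% (10.2 to 14.0), a ratio of 2.20 (1.56 to 3.13). At an equal depth of 1000 UMIs per cell the shares were 4.25% and 10.9%. B cells and monocytes, which lack the receptor, showed 0.253% and 0.581%. The Post-IS share was 6.96% and that of 4 wpt 6.19%. TRAV20 was seen in 17 and 72 T cells, 2.02% and 6.13%, a ratio of 3.03 (1.77 to 5.49), or 1.2% and 4.46% at equal depth. TRAV9-2 was seen in 14 and 64 T cells, 1.66% and 5.45%, a ratio of 3.27 (1.82 to 6.32), or 1.33% and 4.10% at equal depth. TRBV23-1, seen in 82 and 134 T cells, had overlapping shares of 9.75% and 11.4%, and TRBV7-9 was lower, at 18 and 10 cells.

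TRBV9, TRAV20 and TRAV9-2 were often seen in the same cells. T cells with TRBV9 together with TRAV20 or TRAV9-2 were 6 for Pre-IS, 0.713% of T cells (0.262 to 1.55), and 82 at 8 wpt, 6.98% (5.59 to 8.60). They were 0 of 115 for Post-IS and 18 of 889 at 4 wpt, 2.02% (1.2 to 3.18). Of the TRBV9 cells, 13.0% of the Pre-IS library, 32.7% of the 4 wpt and 58.2% of the 8 wpt library had either TRAV gene. Of the other T cells, 2.89%, 3.48% and 1.94% did. These shares were not taken at equal depth. The TRBV9 cells had medians of 1483.5 (Pre-IS), 3665 (4 wpt) and 1603 UMIs (8 wpt), so the 4 wpt cells were read most deeply. The pair TRAV20 and TRAV9-2 was seen together in 2, 5 and 32 TRBV9 cells. V genes can be near-identical, so counts of single ones are uncertain. TRBV7-2 also stood at 166 CPM in TRBV9 cells and 25.8 CPM in other T cells at 8 wpt.

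**Figure D3:**
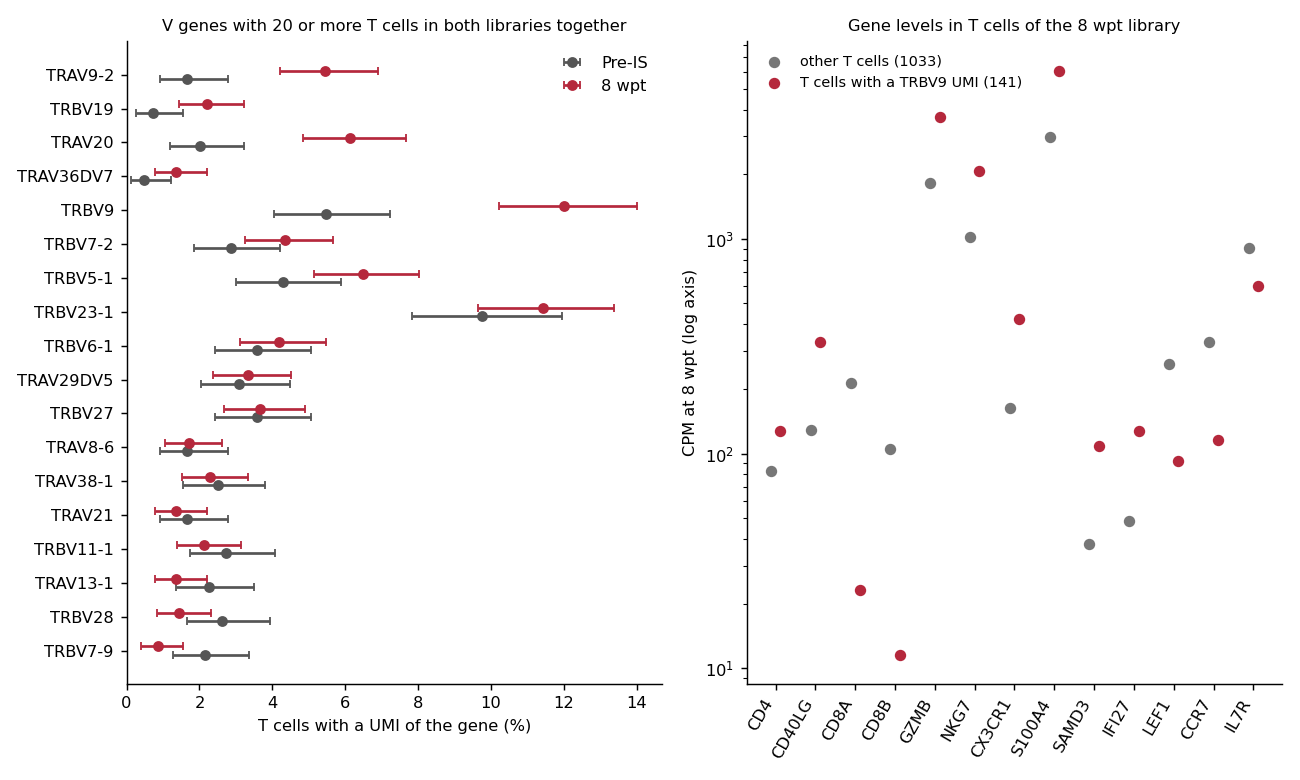
Left, share of T cells with a UMI (%, horizontal axis) for the 18 TRBV and TRAV genes with 20 or more cells over both libraries, Pre-IS grey and 8 wpt red, with exact 95% intervals. Right, level (CPM, log axis) of 13 genes at 8 wpt in the 141 T cells with a TRBV9 UMI (red) and the 1033 others (grey): GZMB is at 3698 against 1827 CPM and CD8A at 23.2 against 214 CPM.

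At 8 wpt the TRBV9 cells were low in CD8 and naive cell transcripts and high in granule genes. CD8A stood at 23.2 CPM against 214 CPM in the other T cells, 9.23-fold lower (4.2 to 25.3), and CD8B at 11.6 against 105 CPM, on 3 UMIs. CD40LG, the ligand by which helper T cells license other cells, stood at 332 against 129 CPM, 2.58-fold higher (2.0 to 3.31), and CD4 at 127 against 83.0 CPM (1.02 to 2.24). GZMB stood at 3698 against 1827 CPM, 2.02-fold higher (1.88 to 2.17), and NKG7 was also 2.02-fold higher (1.83 to 2.22). CX3CR1, a chemokine receptor of circulating effector T cells, was 2.60-fold higher (2.07 to 3.23). PRF1, the perforin gene, stood at 289 and 290 CPM, and GNLY was 1.40-fold lower (1.22 to 1.62), so not every granule gene went with GZMB. LEF1 and CCR7, both of naive and central memory cells, were 2.83-fold and 2.86-fold lower.

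The baseline TRBV9 cells shared some of these levels and not others. Among Pre-IS T cells GZMB stood at 1769 CPM in TRBV9 cells and 1870 CPM in the others (ratio 0.788 to 1.13), NKG7 at 1117 and 1019 CPM, and LEF1 at 213 and 275 CPM. Others had the same direction as at 8 wpt: CD8A stood at 66.5 and 198 CPM, CCR7 at 226 and 373 CPM (1.65-fold lower, 1.02 to 2.85) and GNLY was 1.66-fold lower (1.26 to 2.24). CX3CR1 was 1.58-fold higher (0.881 to 2.63). Free or red cell RNA was not equal between the sets at 8 wpt: HBA, a hemoglobin chain, stood at 282 CPM in TRBV9 cells and 135 CPM in the others. Whether the cells with these V genes are 1 clone was not tested, since no receptor sequences were used here.

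The T cell comparison was repeated with the TRBV9 cells left out of both libraries. The GZMB ratio was 0.977 (0.927 to 1.03), against 1.10 with them, and that of NKG7 1.01 (0.938 to 1.08), and the median of the cytotoxic list was 0.01 in place of 0.09. SAMD3 was 2.20-fold (1.35 to 3.72) and IFI27 2.14-fold higher (1.40 to 3.36), both with intervals no longer beyond 1.5-fold. The median of the metallothionein list was 0.02 in place of 0.30 and that of the S100 list 0.05 in place of 0.16. That of the naive and central memory list was -0.14 in place of -0.23, and the log2 ratio of LEF1 was -0.07 in place of -0.16. CPT1A (3.34-fold) and HSPH1 (2.44-fold) stayed at about the ratios with all T cells. Not every list moved toward baseline. The median of the Fc receptor and ITAM adaptor list was -0.50 in place of -0.31, and that of the NK receptor and adaptor list -0.18 in place of -0.05.

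NK cells were above baseline in share, and their killing genes stood close to it. Of 6890 measured genes, 15.4% stood above baseline by 1.5-fold or more and 6.89% below it. Of 24 cytotoxic effector genes 2 were higher and 2 lower (median 0.02). GZMB stood at 12272.5, 11206 and 10804 CPM for Pre-IS, 4 wpt and 8 wpt, GNLY, the pore-forming granulysin, at 11466, 12753 and 12026 CPM, and NKG7 at 3857, 3152 and 3535 CPM. The Post-IS library held 9 NK cells and is not given. CCL5, a chemokine kept in granules, stood at 1916, 1778 and 2532 CPM and was 1.32-fold higher than baseline (1.22 to 1.43).

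Of 14 measured NK receptors and adaptors 1 was higher and 1 lower (median -0.05). KLRD1, which encodes CD94, stood at 2393 and 2463 CPM and TYROBP, the DAP12 adaptor, at 3208 and 3117 CPM. NCR1 was the lower one, at 195, 181 and 128 CPM for Pre-IS, 4 wpt and 8 wpt, 1.52-fold below baseline (1.15 to 2.0). CD244, a receptor of the SLAM family, was 1.74-fold higher on 9 and 43 UMIs (0.839 to 4.07). The lower NCR1 level per NK cell sits beside its unlabelled sum, which was near baseline while the NK share was 1.92-fold higher.

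In NK cells 4 of 4471 eligible genes (0.0895%) had an interval wholly above 1.5-fold and 1 (0.0224%) wholly below. KLF2 stood at 413, 360 and 738 CPM for Pre-IS, 4 wpt and 8 wpt, 1.79-fold higher than baseline (1.52 to 2.11). IFI27 stood at 22.9, 236 and 91.2 CPM, 3.98-fold higher (2.08 to 8.53). TRERF1, a transcriptional regulator, was 4.65-fold (1.71 to 17.7) and DOP1A 4.75-fold higher (1.51 to 24.0), on 4 and 3 Pre-IS UMIs. VAT1, a vesicle membrane protein, was 2.74-fold lower (1.60 to 4.70). Of these libraries KLF2 was above baseline only at 8 wpt, whereas TRERF1 (9.17, 39.1 and 42.7 CPM) and DOP1A (6.88, 24.8 and 32.6 CPM) were already higher at 4 wpt.

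Type I interferon genes were no more often higher in NK cells than all measured genes, although IFI27 was higher. Of 26 type I interferon genes 3 were higher, beside the 15.4% of all genes, IFI27 and OAS2 among them, and PARP9 was lower (median 0.13). Proliferation genes had 4 of 12 higher and 0 lower, among them HMGB2, a chromatin protein, 1.59-fold (1.21 to 2.11), and H2AFZ, a histone variant, 1.58-fold (1.25 to 2.01). Cells of the proliferating label were not part of this class. IL7R was 1.91-fold lower (1.33 to 2.72) and LEF1 2.54-fold lower (1.10 to 5.83), the latter on 13 and 14 UMIs.

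B cells stayed below baseline in share and were also lower in transcripts of the B cell receptor. Of 5816 measured genes, 11.3% stood above baseline by 1.5-fold or more and 11.8% below it. Of 19 B cell identity and receptor genes 0 were higher and 5 lower (median -0.29, and -0.50 at 4 wpt over Pre-IS). CD79B, a signalling chain of the receptor, stood at 1648, 626 and 874 CPM for Pre-IS, 4 wpt and 8 wpt, 1.89-fold below baseline (1.67 to 2.14). CD72, an inhibitory coreceptor, stood at 214, 35.2 and 89.2 CPM, 2.40-fold lower (1.64 to 3.58). Both had their lowest level at 4 wpt and lay between 4 wpt and baseline at 8 wpt. FCRLA was 1.87-fold (1.30 to 2.74) lower, and the lineage factors PAX5 (1.58-fold, 0.900 to 2.87) and EBF1 (1.60-fold, 0.734 to 3.77) rested on 19 and 10 UMIs at 8 wpt. MS4A1 (2327, 1639 and 1900 CPM) and CD79A (2021, 1225 and 1612 CPM) followed the same order by smaller folds, 1.22 and 1.25. Hemoglobin took 0.0485% of B cell UMIs for Pre-IS and 0.397% at 8 wpt, and its part in these values was not tested.

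These ratios were smaller over the whole B lineage. With B and naive B cells pooled, the log2 ratio of CD79B was -0.51 and that of CD72 -0.34, both under 1.5-fold. Naive B cells themselves stood at 2502 and 2238 CPM of CD79B, 1.12-fold lower (0.970 to 1.29). Of 10 naive and transitional genes in B cells 1 was higher and 3 lower, with IL4R, the interleukin 4 receptor, 2.30-fold lower (1.11 to 5.23). Of 19 memory, atypical and plasmablast genes 2 were higher and 2 lower (median 0.01). ITGAX, which encodes CD11c of atypical memory B cells, stood at 435 and 421 CPM. JCHAIN, of antibody-secreting cells, stood at 1212 and 1256 CPM, with 499 of 702 Pre-IS and 206 of 507 8 wpt UMIs in 1 cell each.

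Heat shock and chaperone genes in B cells had 9 of 22 higher and 0 lower beside 11.3% of all genes (median 0.49, and 0.41 at 4 wpt over Pre-IS). HSPA8, the constitutive HSP70, stood at 659, 1053 and 1006 CPM for Pre-IS, 4 wpt and 8 wpt, 1.53-fold above baseline (1.32 to 1.76). CACYBP, a ubiquitin ligase partner, stood at 77.7, 182 and 159 CPM, 2.04-fold higher (1.37 to 3.06). HSP90B1, the chaperone of the endoplasmic reticulum, stood at 161, 433 and 282 CPM, 1.76-fold higher (1.33 to 2.34). All 3 were above baseline in both post-transplant libraries, HSP90B1 less so at 8 wpt. Among interferon genes 5 of 22 were higher and 2 lower. MHC class II genes had 0 of 13 higher and 1 lower, with MAMU-DRA at 6310 and 6375 CPM. CIITA, the class II transactivator, was the lower one, 1.52-fold (1.08 to 2.17).

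By interval 6 of 5013 eligible B cell genes (0.12%) were beyond 1.5-fold higher and 8 (0.16%) lower. Leading those higher was PLAC8, 4.95-fold (2.97 to 8.60), with 31 of its 69 UMIs at 8 wpt in 1 cell. COPRS, a cofactor of histone methylation, was 5.17-fold (1.85 to 17.8), SIT1, an adaptor of lymphocytes, 3.38-fold (1.76 to 6.84), OPLAH, of glutathione turnover, 3.83-fold (1.72 to 9.35) and C2H3orf38 4.59-fold higher (1.61 to 16). Lower beside CD79B and CD72 were SKIV2L, an RNA helicase, 5.81-fold (1.77 to 30.0), the sugar transporter SLC2A6 3.36-fold (1.73 to 7.13) and the kinase NEK7 3.58-fold (1.57 to 9.54). Most rested on few UMIs, such as 25 and 3 for SKIV2L.

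Transcripts of killer cells in B cells came from few cells. GZMB was 3.19-fold higher (2.38 to 4.32), with 67 UMIs in 12 Pre-IS cells and 149 UMIs in 11 cells at 8 wpt, 38 of them in 1 cell. Of 10 measured cytotoxic genes 5 were higher and 1 lower (median 0.53). Of 5 dendritic cell genes 3 were higher, GZMB again, IRF8 (1.56-fold, 1.11 to 2.19) and IRF7 (1.74-fold, 0.808 to 3.82). The median of these 5 was 0.64, and -0.014 in cells thinned to 1000 UMIs. Plasmacytoid dendritic cells are known to express all 3, together with PLAC8, and their part in the class was not tested. Without cells that carried transcripts of another lineage the log2 ratio of GZMB was 2.41, against 1.67 with them.

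Naive B cells, though fewer than at baseline, showed close to baseline levels of the genes that define them. Of 2282 measured genes, 12.1% stood above baseline by 1.5-fold or more and 11% below it, so that 52.6% of the genes past the fold were higher. Scaling by the median of ratios moved this to 16.2% and 8.9%, or 64.6%. B cell identity genes had 0 of 21 higher and 2 lower (median -0.10). MS4A1 stood at 1456 and 1543 CPM, CD79A at 1929 and 1859 CPM and CD37, a tetraspanin, at 2402 and 2368 CPM. Naive and transitional genes had 1 of 13 higher and 1 lower (median -0.11). MAMU-DRA stood at 6644 and 6906 CPM.

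Of 2028 eligible genes in naive B cells 4 (0.197%) had an interval wholly above 1.5-fold and 3 (0.148%) wholly below. UFM1, a ubiquitin-like modifier, was 8.97-fold higher (2.18 to 79.1) on 2 and 20 UMIs and CCT4, a subunit of the chaperonin TRiC, 2.99-fold (1.54 to 6.26) on 12 and 40 UMIs. MYNN (5.38-fold) and CEP57 (4.48-fold) had 3 and 4 Pre-IS UMIs. C10orf143 was 6.32-fold (1.83 to 33.7), SPTAN1, a spectrin, 4.24-fold (1.53 to 14.5) and CENPM, a centromere protein, 3.63-fold lower (1.59 to 9.26). Of 11 type I interferon genes 4 were higher and 2 lower, with BST2 at 94.6 and 158 CPM and IFI6 at 56.7 and 119 CPM among the higher. The 3 measured cytotoxic genes were all higher, with 25 of 27 GZMB UMIs at 8 wpt in 1 cell.

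CD14+ monocytes were at the baseline share at 8 wpt but not at the baseline level of early response genes. Of 6414 measured genes, 11.8% stood above baseline by 1.5-fold or more and 9.45% below it. Of 22 AP-1, EGR and NR4A early response genes, which cells switch on within minutes of a stimulus, 0 were higher and 12 lower, beside the 9.45% of all genes. Their median was -0.70, and the same ratio taken for the Post-IS library gave 1.07 and for the 4 wpt library -0.52. FOS, which pairs with JUN to form AP-1, stood at 1961, 4741, 437 and 590 CPM in Pre-IS, Post-IS, 4 wpt and 8 wpt, and was 3.32-fold below baseline at 8 wpt (3.01 to 3.68). FOSB stood at 131, 446, 27.2 and 33.7 CPM, 3.90-fold lower (2.57 to 6.02), and NR4A1, an orphan nuclear receptor, at 63.9, 205, 6.81 and 12.5 CPM, 5.10-fold lower (2.63 to 10.5). For all 3 the Post-IS level was the highest and both post-transplant levels lay below baseline.

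Others of the list followed the same order. EGR1, a zinc finger factor, stood at 91.2, 421, 18.7 and 25.0 CPM, JUN at 96.7, 682, 38.3 and 44.3 CPM and JUNB at 538, 1016, 300 and 324 CPM. ZFP36, which degrades cytokine mRNAs, stood at 1505, 1968, 697 and 868 CPM, 1.73-fold below baseline (1.58 to 1.91). ZFP36L1 did not, at 607, 584, 470 and 648 CPM. DUSP1, on this list and the glucocorticoid list, stood at 852, 2385, 340 and 311 CPM, 2.74-fold lower (2.37 to 3.17). PTGS2, the inducible cyclooxygenase, stood at 63.9, 227, 11.9 and 8.66 CPM, 7.37-fold lower (3.47 to 17.4). FOS was seen in 228 of 256 Pre-IS and 230 of 346 8 wpt cells, so its UMIs were spread over most cells of both libraries. In the other classes the list medians lay between -0.19 and 0.13. The lowest of these was in MS4A7+ monocytes, with 1 of 15 genes higher and 5 lower, beside 13% and 16.8% of all genes.

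**Figure D4:**
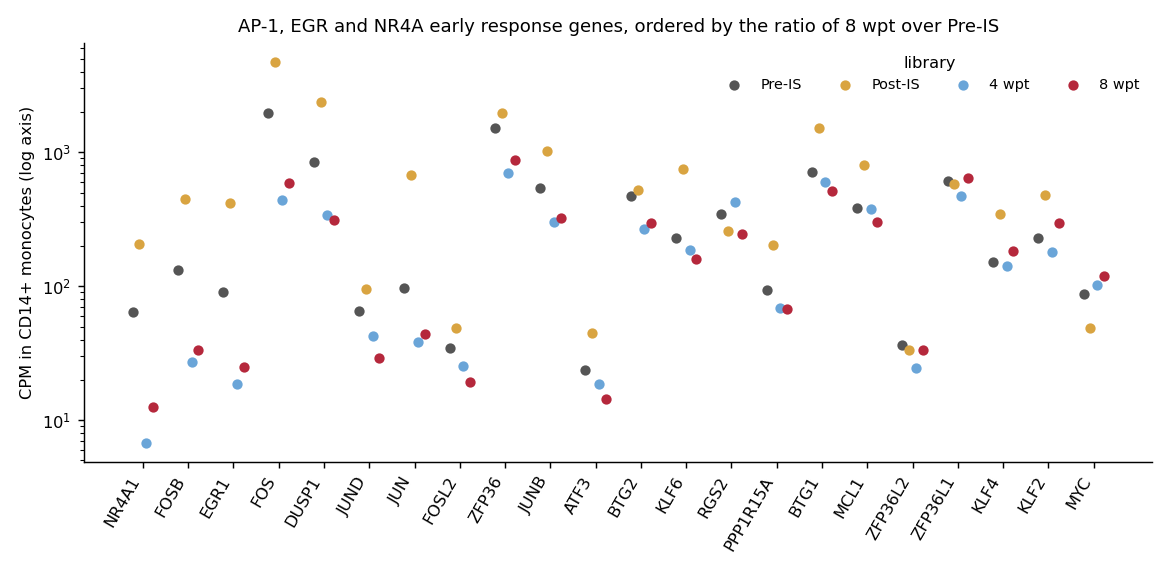
Level (CPM, log axis) of 22 early response genes in CD14+ monocytes of the 4 libraries, ordered by the ratio of 8 wpt over Pre-IS. For most genes on the left the Post-IS point is highest and the 4 wpt and 8 wpt points lie below Pre-IS, as for FOS (1961, 4741, 437 and 590 CPM).

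Glucocorticoid-induced genes in CD14+ monocytes had 3 of 20 higher and 7 lower (median -0.29, against 0.85 for Post-IS and -0.12 for 4 wpt). TSC22D3 stood at 462, 747, 313 and 259 CPM, 1.78-fold below baseline (1.5 to 2.13), and TXNIP, an inhibitor of glucose uptake, at 927, 1670, 672 and 615 CPM, 1.51-fold lower (1.34 to 1.70). PER1, a clock gene, was 1.83-fold lower (1.23 to 2.71). CEBPB (40.1, 261, 54.4 and 81.8 CPM) and SGK1 (45.6, 181, 54.4 and 82.8 CPM) remained above baseline, 2.04-fold (1.26 to 3.42) and 1.81-fold (1.15 to 2.96). The members thus stood on both sides of baseline. Time of day and handling of the blood are not given in the sources used here.

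Identity and antigen presentation genes of CD14+ monocytes stood near baseline. Classical monocyte genes had 1 of 17 higher and 1 lower (median 0.01), with LYZ, the lysozyme gene, at 10220 and 10676 CPM and S100A8, a calcium-binding alarmin, at 6029 and 6315 CPM. CD14 itself was 1.40-fold lower (1.24 to 1.58), at 883 and 630 CPM, and FCN1 1.41-fold lower (1.30 to 1.54). MHC class II genes had 1 of 14 higher and 0 lower, with a median of 0.04, against -0.56 for Post-IS. MAMU-DRA stood at 5635, 3691, 5276 and 6745 CPM and CD74 at 24904, 17703, 21263 and 24315 CPM, both lowest in the Post-IS library.

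The median of the unfolded protein response genes was 0.16 in T cells, 0.31 in NK cells, 0.26 in B cells, 0.35 in naive B cells and 0.11 in MS4A7+ monocytes. In CD14+ monocytes it was 0.27, with 7 of 16 genes higher and 0 lower, beside 11.8% of all genes higher. HSPA5, the chaperone BiP, stood at 52.9, 163, 104 and 105 CPM, 1.98-fold above baseline (1.31 to 3.1), CALR, calreticulin, at 182, 290, 172 and 305 CPM, 1.67-fold (1.33 to 2.12), and XBP1, a transcription factor of the response, at 73.0, 82.5, 111 and 122 CPM, 1.67-fold (1.17 to 2.45). ATF4, another factor of the response, was 1.35-fold lower (1.12 to 1.63). Type I interferon genes had 7 of 29 higher and 2 lower (median 0.11), IFI27 at 3.65, 11.1, 84.2 and 28.9 CPM (7.91-fold, 2.01 to 68.3) and IRF7 2.44-fold higher (1.12 to 6.06).

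By interval 7 of 5247 eligible genes (0.133%) were beyond 1.5-fold higher in CD14+ monocytes and 12 (0.229%) lower. Platelet genes were among those higher. PF4, a platelet chemokine, had 0 UMIs for Pre-IS and 44 UMIs in 22 cells at 8 wpt, at least 7.74-fold higher, with Pre-IS at a floor of 3 counts. PPBP, another, was 6.2-fold higher (3.44 to 12.3), at 21.9, 176, 17 and 136 CPM in the 4 libraries. All 3 measured platelet genes were higher. The summed level of the 15 on the list was 27.4 and 196 CPM. PPBP was higher in the other classes too, at 3.70 and 14.8 CPM in T cells and 29.3 and 64.4 CPM in B cells, while 0 cells of either library carried the platelet label. EVI5L (16.4-fold, 2.72 to 666) and CPT1A (10.5-fold, 1.69 to 437) each had 1 Pre-IS UMI, and ADORA2B, an adenosine receptor, was 7.38-fold higher (1.86 to 64.0). C1QB and C1QC, complement genes, were 2.68-fold and 3.54-fold higher, in 10 and 13 cells at 8 wpt.

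**Figure D5:**
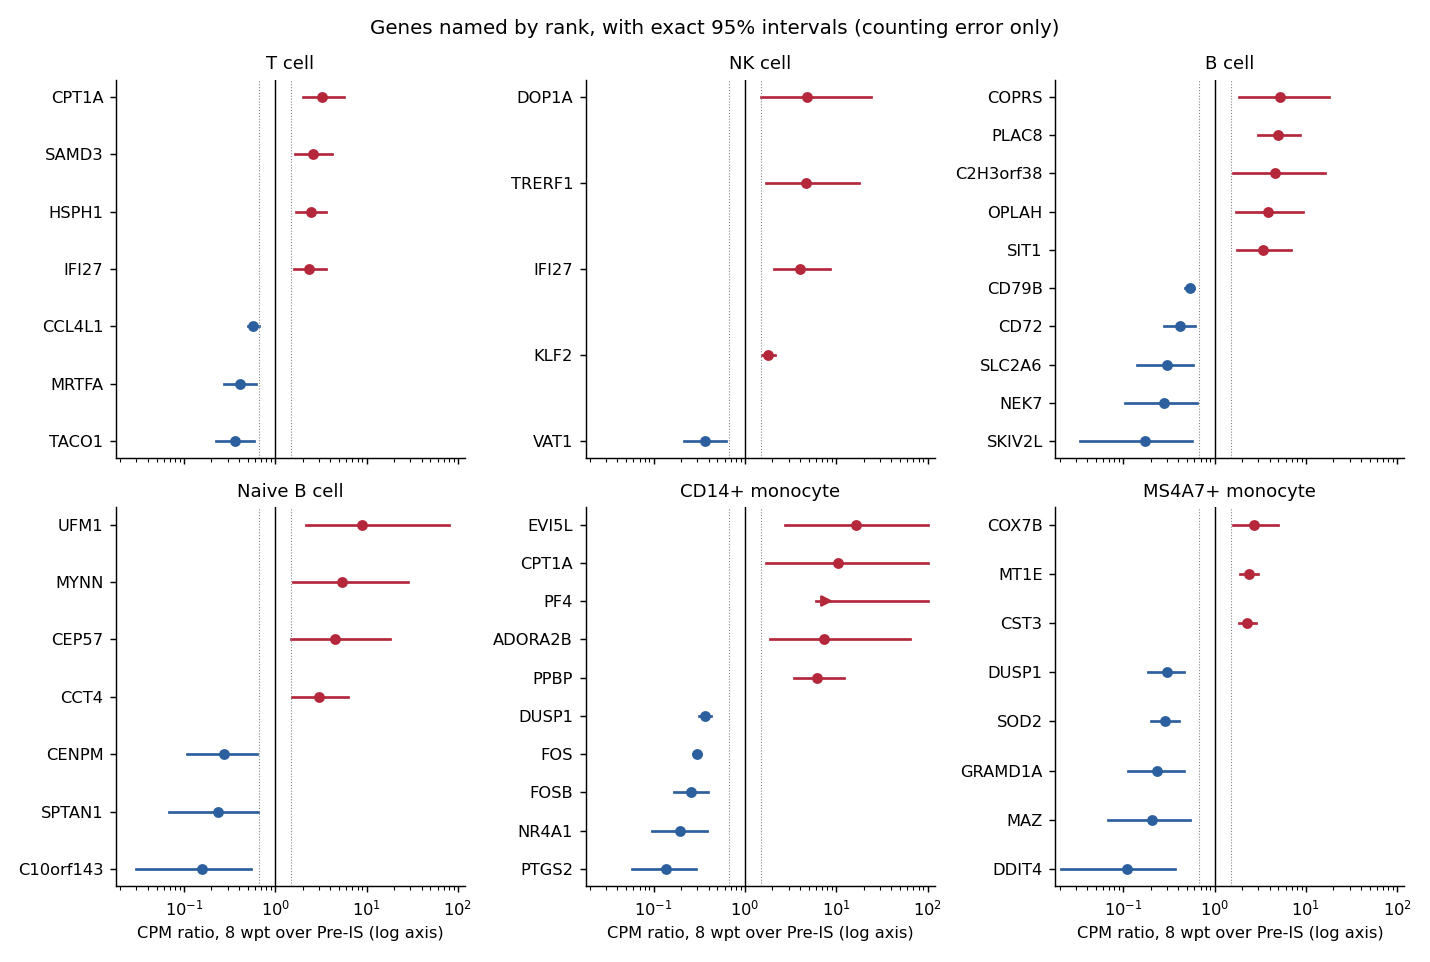
CPM ratio of 8 wpt over Pre-IS (log axis) with exact 95% intervals, counting error only, for the genes named by rank in each class; dotted lines mark 1.5-fold either way, intervals that pass the axis end at its edge, and the triangle is a lower bound. FOS in CD14+ monocytes (3.32-fold lower) has one of the narrowest intervals and the naive B cell genes have wide ones.

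In MS4A7+ monocytes, on 75 and 65 cells, some identity and activation genes stood away from baseline. Several of these ratios depended on depth, on scaling or on a single cell. Of 2039 measured genes, 13% stood above baseline by 1.5-fold or more and 16.8% below it, so that 43.6% of the genes past the fold were higher. TMM scaling moved this to 19.9% and 12% (62.3%) and the median of ratios to 20.7% and 11.3% (64.7%). These scalings shifted the median of all genes by 0.15 and 0.18 on the log2 scale, so directions here hold relative to the class total.

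Of 19 classical monocyte genes present in the data, 5 reached the UMI minimum in MS4A7+ monocytes. Of these 5, 4 were higher and 0 lower (median 0.62). Markers of CD14+ monocytes went both ways in this class. S100A8 stood at 119.9 CPM for Pre-IS and 13.7 CPM at 8 wpt, and CD14 at 49.98 and 27.47 CPM. Both had too few UMIs to be counted as lower. VCAN stood at 119.9 and 192.3 CPM. LYZ stood at 1299, 1291, 797 and 2280 CPM in the 4 libraries, 1.75-fold above baseline (1.43 to 2.17). Nonclassical genes had 0 of 12 higher and 3 lower. LST1 stood at 1259 and 673 CPM, 1.87-fold lower (1.43 to 2.46), CDKN1C, a cell cycle inhibitor typical of these cells, was 2.04-fold lower (1.19 to 3.55) and the transcription factor TCF7L2 1.67-fold lower (1.27 to 2.21). For TCF7L2 thinning to 1000 UMIs gave a log2 ratio of -0.18, under 1.5-fold. The label's own gene MS4A7 stood at 840, 791, 931 and 570 CPM, 1.47-fold lower (1.07 to 2.02), and FCGR3 at 1399 and 1257 CPM. The median of the nonclassical list was -0.13, less than the shift that these scalings give to all genes, so no direction is given for it.

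MHC class II genes had 4 of 8 higher and 0 lower in MS4A7+ monocytes (median 0.42). MAMU-DRA stood at 2379, 1900, 1871 and 3570 CPM, 1.5-fold above baseline (1.29 to 1.76), and IFI30, a lysosomal reductase for antigens, at 1119, 1784, 1219 and 2026 CPM, 1.81-fold (1.45 to 2.27). CST3, cystatin C, was 2.28-fold higher (1.84 to 2.85), at 1099, 1313, 539 and 2506 CPM. MT1E, a metallothionein, was 2.37-fold higher (1.89 to 3.01), with 67 of its 335 UMIs at 8 wpt in 1 cell and a ratio of 2.03 without it. COX7B, a subunit of cytochrome oxidase, was 2.71-fold higher (1.57 to 4.92). These 3 of 1876 eligible genes (0.16%) had an interval wholly above 1.5-fold, and 12 (0.64%) had one wholly below.

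Inflammatory genes of MS4A7+ monocytes rested on few cells. Of 5 measured NF-kB targets and inflammatory cytokines 0 were higher and 3 lower (median -1.08), but the median was -0.46 with cells weighted equally and -0.16 in cells thinned to 1000 UMIs. SOD2, a mitochondrial superoxide dismutase, was 3.48-fold lower (2.45 to 5.02), but 77 of its 110 Pre-IS UMIs lay in 1 cell and the ratio without the cell was 0.804. BCL2A1, a survival factor, was 2.12-fold lower (1.23 to 3.73). NFKBIA, the NF-kB inhibitor, was 2.29-fold lower (1.12 to 4.83), and its direction flipped to 0.02 on the log2 scale in cells thinned to 1000 UMIs. DUSP1 was 3.36-fold lower (2.15 to 5.39), at 670, 1306, 648 and 199 CPM, and DDIT4, an inhibitor of mTOR, 9.22-fold lower (2.71 to 48.6) on 19 and 3 UMIs. GRAMD1A, a sterol transporter, was 4.25-fold (2.15 to 8.98) and the zinc finger gene MAZ 4.85-fold lower (1.88 to 14.8). DUSP1 was thus lower in both monocyte classes and in T cells.

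Among genes measured in every class there was little that all shared. PPBP, described above, was higher in every class but had too few UMIs in some to be counted here. Of 1398 genes measured in all 6 classes, 0 were at least 1.5-fold the same way in 5 or 6 classes. There were 4 genes higher in 4 classes and 0 lower in 4. Among the former were BAZ1A, a chromatin remodelling subunit, COX7B, and MRPL33, of the mitochondrial ribosome. COX7B ratios were 1.54 in T cells, 1.5 in NK cells, 1.79 in B cells, 1.46 in naive B cells, 1.34 in CD14+ and 2.71 in MS4A7+ monocytes. BAZ1A ratios were 1.53 in T cells, 1.65 in NK cells, 0.897 in B cells, 2.18 in naive B cells, 1.76 in CD14+ and 0.309 in MS4A7+ monocytes, so that gene stood on both sides of baseline.

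The distance from baseline was also set out at equal depth, with the same number of cells drawn from each library and 500 UMIs drawn per cell, over genes with a mean of at least 200 CPM. In CD14+ monocytes (256 cells, 664 genes) the share of genes at least 1.5-fold from Pre-IS was 18.1% in the Post-IS, 22.1% in the 4 wpt and 10.5% in the 8 wpt library. In NK cells (257 cells) it was 15.9% for 4 wpt and 8.84% for 8 wpt, and in T cells (109 cells) 29.8%, 27.6% and 20.9%. In B cells (114 cells) it was 28% for 4 wpt and 23.2% for 8 wpt. In these classes the share was lowest for the 8 wpt library. Each library was drawn once and no interval was computed, so how much of each share is counting error is not known. MS4A7+ monocytes (65 cells) stood at 34.9%, 35.7% and 37.9%, with 8 wpt no nearer than the others. Each class has its own cell number, so the percentages may be compared between libraries and not between classes.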

How the data were processed

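The authors deposited, per the file headers, 1 table of raw UMI counts (15354 gene rows) and 1 table of cell labels for each library, and the labels' text gives each barcode 1 of 9 cell types. Cell Ranger 3.1.0, Seurat 3.2.3 and the Mmul_10 build are listed in the submitters' processing notes. How cells were chosen or doublets treated is not given in the sources used here. No doublet caller was run, and cells with 2 or more UMIs of another lineage's markers, from at least 2 of them, were left out in an alternative. Of 2559 rows with an identifier only, 400 were named from the reference table.

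Counts were summed per class and library, in Python 3.11.15 with numpy 2.4.6, pandas 2.3.3 and scipy 1.17.1, and scaled to the class total; TMM factors came from edgeR 4.0.16. The log2 ratio has an offset of 0.5 UMIs. The fold and interval steps were tested on simulated data. Named genes were, per class, up to 5 in each direction ranked by the interval bound nearest to 1, that bound beyond 1.5-fold, seen in 5% or more of the cells of either library, passing over genes of ribosomal proteins, mitochondria, antigen receptors and hemoglobin, and genes under 10% of their highest class in both libraries. From each described list of the 42, up to 4 members with most UMIs and up to 4 per direction were named, others after their values were seen. The members and lists were chosen with earlier results of these data known. Alternatives were other scalings, cells weighted equally, thinning to 1000 UMIs, other UMI minimums and offsets, and pooled lineages. Some genes are not reported here.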

Additional observations from a re-analysis of the deposited data

How the results depend on the processing

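With 1 library per group, depth and the number of cells limit what can be seen: naive B cells and MS4A7+ monocytes had fewest UMIs, and all intervals leave out differences between animals and blood draws. No paired analysis was possible because each group is 1 library. All 27 share values stayed within the counting interval of the reported ratio. Of 100 percentages of genes past 1.5-fold 77 stayed within 1.5 times and 23 moved. Of 1899 list medians 62 moved and 1 that had been past 1.5-fold changed sign; counting medians of any size, 227 changed sign. Of 653 gene values 14 moved and 1 whose interval had excluded 1 changed sign. The cause was not tested, except that a higher UMI minimum keeps genes with less counting error.

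Percentages higher and lower at a minimum of 50 UMIs were 5.99 and 2.69 in T cells, 5.92 and 7.36 in B cells, 5.38 and 5.77 in naive B cells, and 6.49 and 5.57 in CD14+ monocytes, with 3.50 lower in NK cells and 10.3 lower in MS4A7+ monocytes. At a minimum of 200 UMIs they were 1.64 and 0.632 in T cells, 3.2 and 0.622 in NK cells, 2.73 and 3.22 in B cells, 1.06 and 1.06 in naive B cells, and 1.53 and 1.72 in CD14+ monocytes, with 1.65 lower in MS4A7+ monocytes. The percentage higher in MS4A7+ monocytes was 19.9 under TMM and 20.7 under the median of ratios. In cells thinned to 1000 UMIs the median of dendritic genes in B cells was -0.014 against 0.64, and the log2 ratio of NFKBIA in MS4A7+ monocytes 0.024 against -1.18. Alternatives added after seeing the data were the cell with most UMIs left out, lymphocytes as denominator, TRBV9 cells left out, equal depth and unlabelled sums.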

Other observations

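Transcripts typical of killer cells found in CD14+ monocytes were below baseline while the NK share of the library was above it. Of 9 measured cytotoxic genes in this class 0 were higher and 5 lower, beside the 9.45% of all genes. Their median was -0.68, and it was -0.29 in cells thinned to 1000 UMIs, -0.38 with cells weighted equally and -1.97 without cells carrying transcripts of another lineage. GNLY stood at 73.0 CPM for Pre-IS, with 21 of its 40 UMIs in 1 cell, and 15.4 CPM at 8 wpt, and NKG7 at 58.4 and 22.1 CPM.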
